A study of Mus musculus with 6 samples.

Results

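The AP-1 subunits Fos, Fosb, Fosl1, Fosl2, Jun, Junb and Jund and the immediate early genes Egr1, Ier3 and Dusp1 were followed across Tri-PyMT cells. They were taken by symbol from the deposited expression table. All 10 were found among its 30743 features, and all 10 were among the 13080 features that reached 1 FPKM in at least 2 samples and were tested. Their lowest value in any sample was 4.44 FPKM. FPKM (fragments scaled to transcript length and to the mapped fragments of a library) allows levels of different genes to be set side by side.

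Tri-PyMT is a mouse breast tumour line in which a fluorescent colour switch traces epithelial-mesenchymal transition (EMT). RNA sequencing gave 6 samples in 3 groups of 2. The first group was GFP+ (EMT) cells from cultures given 4 µM 4-hydroperoxy-cyclophosphamide (CTX) for 7 days, a pre-activated form of the alkylating drug cyclophosphamide. The second was untreated GFP+ (EMT) cells, and the third was untreated RFP+ (non-EMT) cells. All were grown with 10% serum, which is itself an inducer of immediate early genes, and were sorted by flow cytometry before RNA extraction. A culture time is given for the drug-treated cells alone, and CTX-treated RFP+ cells were not analysed here. All samples are of 1 cell line, and the colour reports past activity of a mesenchymal promoter, not the present state of a cell. Whether the 2 samples of a group are separate cultures is not stated. The p-values therefore reflect variation among these 6 libraries only, and this variation may be technical.

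AP-1 is a dimer of basic leucine zipper proteins of the FOS and JUN families that binds short DNA elements and regulates genes of proliferation, invasion and stress. FOS proteins need a JUN partner, whereas JUN proteins can also pair with each other. Most of these genes are immediate early genes: growth factors, serum, stress or mechanical handling switch them on within minutes, through MAP kinases and factors already present in the cell. Fosl1 (FRA-1) is known for its part in the mesenchymal programme of breast tumour cells, and Dusp1 encodes a phosphatase that turns MAP kinases off again.

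The stretch upstream of the start site is shown for 4 members on which the results turn, namely Fos, Fosb and Dusp1, whose untreated replicates lay far apart, and Ier3, which was highest in CTX-treated cells. Each is the 250 bases before the start site from RefSeq (GRCm38.p6), written 5′ to 3′ on the gene's strand. They lie at chr12:85473640-85473889 (Fos, plus strand), chr7:19310046-19310295 (Fosb, minus strand), chr17:26508473-26508722 (Dusp1, minus strand) and chr17:35821463-35821712 (Ier3, plus strand). Capitals mark TGACG, one arm of the cAMP response element (CRE), and TGACGTCA, the full CRE.
Fos: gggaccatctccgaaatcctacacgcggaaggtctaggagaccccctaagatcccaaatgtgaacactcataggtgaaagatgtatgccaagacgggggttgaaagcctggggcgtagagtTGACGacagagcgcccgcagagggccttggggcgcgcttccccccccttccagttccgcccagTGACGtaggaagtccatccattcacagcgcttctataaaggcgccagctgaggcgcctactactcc
Fosb: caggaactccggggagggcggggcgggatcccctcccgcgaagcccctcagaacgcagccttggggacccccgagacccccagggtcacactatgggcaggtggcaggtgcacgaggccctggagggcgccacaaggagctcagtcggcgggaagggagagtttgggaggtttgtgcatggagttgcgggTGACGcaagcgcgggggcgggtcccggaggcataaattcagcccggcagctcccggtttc
Dusp1: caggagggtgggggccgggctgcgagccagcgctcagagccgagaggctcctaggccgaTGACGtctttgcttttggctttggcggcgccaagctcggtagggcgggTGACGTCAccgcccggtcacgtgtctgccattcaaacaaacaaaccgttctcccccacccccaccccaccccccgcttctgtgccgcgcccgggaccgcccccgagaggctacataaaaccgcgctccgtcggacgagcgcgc
Ier3: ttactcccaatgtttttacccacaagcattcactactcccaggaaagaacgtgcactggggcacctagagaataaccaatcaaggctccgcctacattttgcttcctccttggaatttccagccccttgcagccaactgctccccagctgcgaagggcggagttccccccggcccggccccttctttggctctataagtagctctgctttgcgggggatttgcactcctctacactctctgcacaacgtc
Promoters of 8 of the 10 members were in the RefSeq table, and Fosl1 and Egr1 had no entry. On either strand, TGACG was found in 4 of these 8 (Fos, Fosb, Junb and Dusp1) and in 17.8% of 32851 mouse promoters of the same length. The Fos stretch held it at -129 and -66 and the Fosb stretch at -60, counted from the start site to the first base. Dusp1 alone of the 8 held the full CRE, at -143, which contains TGACG on both strands and occurs in 1.55% of all promoters. The AP-1 element TGANTCA was in 0 of 8 (6.75% of all promoters) and the CArG box, the element of serum response factor, in 0 of 8 (1.47% of all). The Ier3 stretch held none of these letters. These are letter matches within 250 bases. They say nothing of binding, of variant forms of an element or of elements further upstream.

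Between 11543 and 12866 features per sample reached 1 FPKM, and the depth of each library is unknown, since the table holds no read counts. Untreated GFP+ replicate 1 had low values for most genes, with a log2 size factor of -0.43, while the other 5 samples had 0.03 to 0.15. Values are therefore given as deposited, and after median-ratio scaling for the members and lists where it moved a result. The CTX-treated pair lay closest together (robust SD of the replicate log2 ratio 0.0762, against 0.34 for untreated GFP+ and 0.293 for untreated RFP+ cells). Differences are on the log2(FPKM + 1) scale and were tested with limma and Benjamini-Hochberg adjustment over all 13080 genes, with 1 estimate of the spread for the 3 groups. Lower RNA of a gene per cell and fewer cells that express it cannot be told apart in these bulk samples.

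Some members in CTX-treated GFP+ cells lay outside the range of the untreated cells of both colours. Fosl1 and Ier3 lay above all 4 untreated samples in both CTX-treated samples, and Fos and Fosb lay below all 4. Of these genes, only Fosl1 passed 0.05 against both untreated groups. In all, 2 of 10 members lay above and 2 of 10 below, while 34.1% of all genes tested lay above all 4 untreated samples and 11.3% below. No result about the members as a set is read from these counts. After scaling, 2 members lay above (25.1% of all genes) and 3 below (32.3% of all genes), with Jund as the third. Jun, Junb, Egr1, Dusp1 and Fosl2 in CTX-treated cells fell within the range of the untreated samples.

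**Figure D1:**
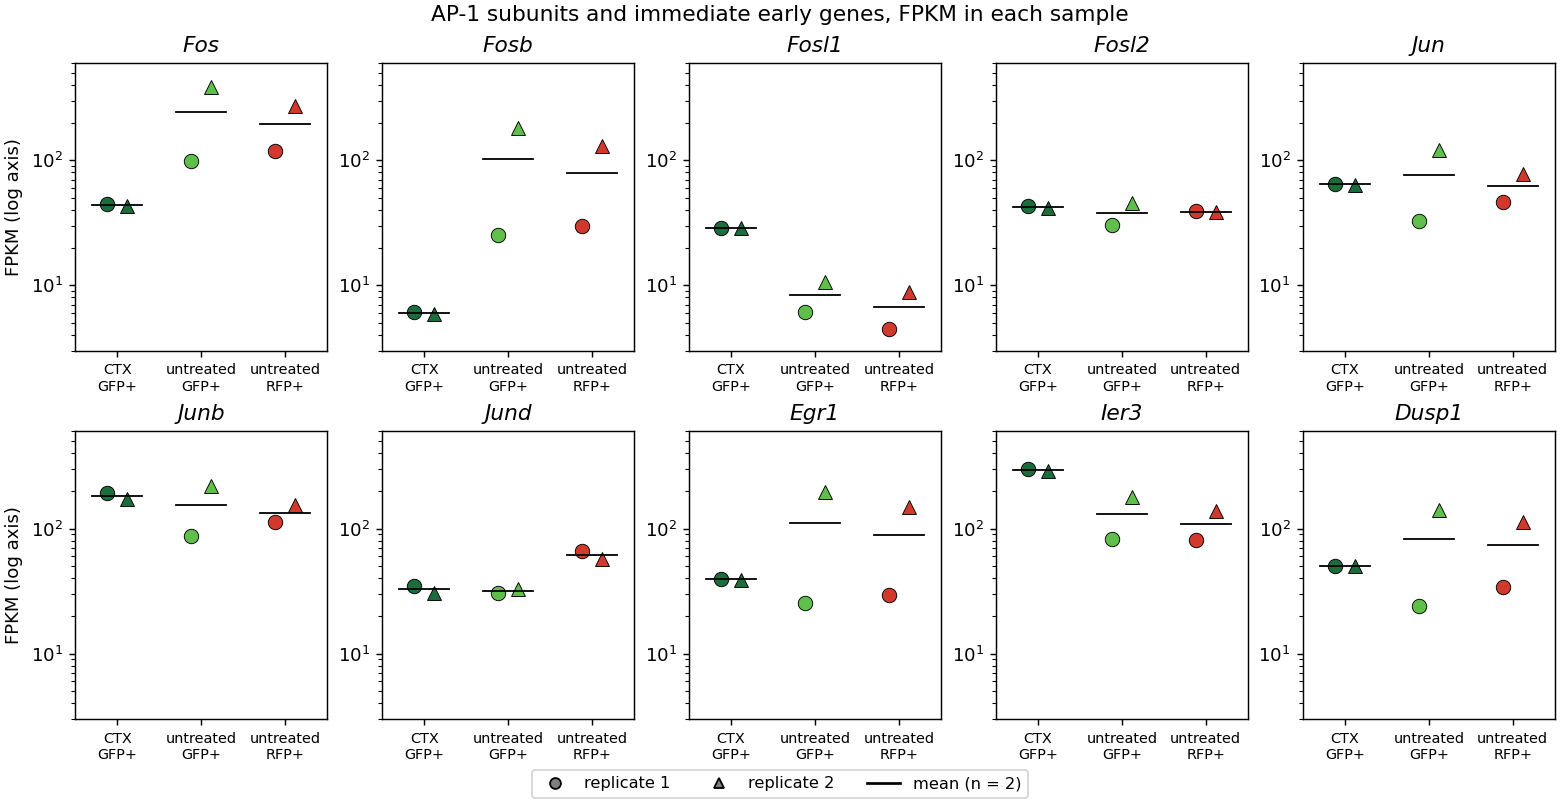
FPKM (log axis) of the 10 members in each sample, with CTX-treated GFP+, untreated GFP+ and untreated RFP+ cells from left to right; points are samples. The CTX-treated pair nearly coincides for every member, while untreated replicates of Fos, Fosb, Egr1 and Dusp1 are far apart in both colours.

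Fos encodes the founding member of its family. It was at 45.1 and 43.5 FPKM in CTX-treated GFP+ cells, at 98.8 and 386 FPKM in untreated GFP+ cells, and at 119 and 273 FPKM in untreated RFP+ cells. Both CTX-treated samples were below every untreated sample, and the untreated groups overlapped widely. CTX-treated minus untreated GFP+ cells gave -2.12 (SE 0.64, limma adjusted p = 0.0796), and CTX-treated GFP+ minus RFP+ cells gave -2.0 (SE 0.64, adjusted p = 0.0775), so neither difference passed 0.05. When 1 library was left out, the difference from untreated GFP+ cells ranged from -3.10 (without untreated GFP+ replicate 1) to -1.14 (without untreated GFP+ replicate 2).

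Fosb, a close relative of Fos that is likewise induced by serum, had the same arrangement at a lower level. It was at 6.13 and 5.86 FPKM in CTX-treated GFP+ cells, at 25.2 and 182 FPKM in untreated GFP+ cells, and at 29.6 and 130 FPKM in untreated RFP+ cells. The 4 untreated samples all exceeded the CTX-treated pair. The differences, -3.31 (SE 0.97) from untreated GFP+ and -3.18 (SE 0.97) from RFP+ cells, were the largest of any member, but with adjusted p of 0.0721 and 0.0671 in limma they did not pass. When the fit held only the 4 samples compared, Fos and Fosb passed against RFP+ cells (adjusted p = 0.0313 and 0.0378) and not against untreated GFP+ cells (0.147 and 0.128).

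Fosl1 encodes FRA-1, a FOS protein without the transactivation domain of Fos. It was at 29.0 and 28.7 FPKM in CTX-treated GFP+ cells, at 6.08 and 10.7 FPKM in untreated GFP+ cells, and at 4.44 and 8.92 FPKM in untreated RFP+ cells. The CTX-treated pair stood clear of all untreated samples, and the 2 untreated groups overlapped. It rose by 1.72 against untreated GFP+ cells (SE 0.35, limma adjusted p = 0.0252) and by 2.02 against RFP+ cells (SE 0.35, adjusted p = 0.0124). After scaling, the differences were 1.39 (adjusted p = 0.0385) and 1.93 (adjusted p = 0.012).

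How firmly Fosl1 was called depended on the comparison. Against untreated GFP+ cells, the adjusted p ranged from 1.34e-09 to 0.0983 over the alternatives and was under 0.05 in 11 of 19. When 1 library was left out, the call held only without untreated GFP+ replicate 2 (2.08, adjusted p = 0.0202), and the difference ranged from 1.35 to 2.08. It was lost without RFP+ replicate 1 (adjusted p = 0.0542) or 2 (0.0544), without untreated GFP+ replicate 1 (0.0983), and without CTX-treated replicate 1 (0.0931) or 2 (0.0865). Against RFP+ cells it was kept in 17 of 18 alternatives and lost without RFP+ replicate 1 (1.59, adjusted p = 0.0998). With the CTX-treated pair averaged and counted as 1 sample, the adjusted p was 0.0916 against untreated GFP+ and 0.0411 against RFP+ cells.

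Fosl2 encodes FRA-2, the other FOS protein that lacks a transactivation domain. It was at 43.2 and 41.9 FPKM in CTX-treated GFP+ cells, at 30.3 and 45.5 FPKM in untreated GFP+ cells, and at 39.0 and 38.4 FPKM in untreated RFP+ cells. No comparison passed, with differences of 0.19 (adjusted p = 0.598) from untreated GFP+ cells, which became -0.16 after scaling, and 0.13 (adjusted p = 0.709) from RFP+ cells. Its RFP+ replicates were nearly equal, and its untreated GFP+ replicates lay on either side of the CTX-treated pair.

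The make-up of the FOS family can be read within a sample, where scaling between libraries has no effect. Fosl1 made up 23.5% and 23.9% of the summed FPKM of the 4 FOS genes in CTX-treated GFP+ cells, against 3.79% and 1.71% in untreated GFP+ and 2.31% and 1.98% in untreated RFP+ cells. Fos made up 36.5% and 36.2% in CTX-treated GFP+ cells, against 61.6% and 61.9% in untreated GFP+ and 62.0% and 60.6% in RFP+ cells. The share of Fos was thus nearly alike in all 4 untreated samples, although its level was not. Fosb held 4.96% and 4.89% in CTX-treated GFP+ cells, against 15.7% and 29.1% in untreated GFP+ and 15.4% and 28.9% in RFP+ cells. Fosl2 held 35.0% in both CTX-treated samples, against 18.9% and 7.29% in untreated GFP+ and 20.3% and 8.53% in RFP+ cells. The summed FPKM was 123 and 120 in CTX-treated GFP+ cells, 160 and 624 in untreated GFP+ cells and 192 and 451 in untreated RFP+ cells. Fos was the largest single share in every sample, in the CTX-treated pair only narrowly before Fosl2. In that pair the transcripts of the 2 FRA proteins together outnumbered those of Fos, and in every untreated sample Fos outnumbered the 2 together. With 2 samples a group, no test was made of these shares.

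**Figure D2:**
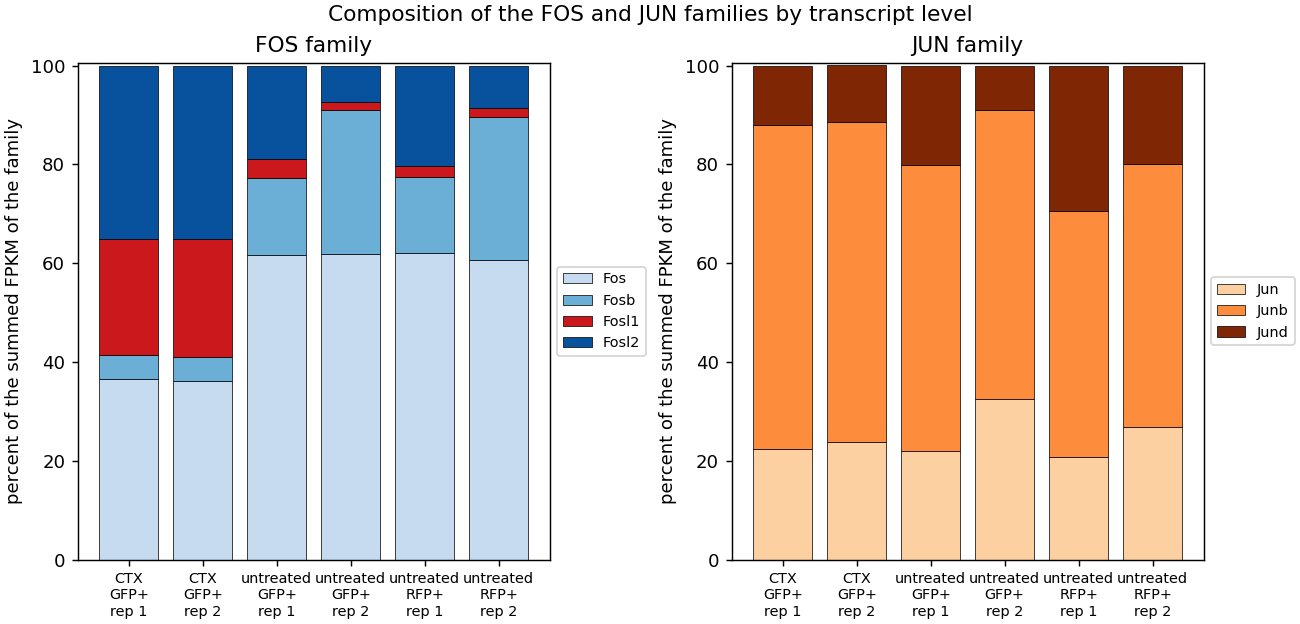
Share (%) of each gene in the summed FPKM of the FOS family and of the JUN family, 1 bar per sample, with CTX-treated GFP+, untreated GFP+ and untreated RFP+ cells from left to right. Fosl1 fills 23.5% and 23.9% of the FOS family in CTX-treated cells and at most 3.79% in any untreated sample, and Junb is the largest JUN share in every sample.

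Among the JUN partners, Junb was the most abundant in every sample. Junb, which pairs with FOS proteins and can hold back the activity of Jun, was at 192 and 172 FPKM in CTX-treated GFP+ cells, at 87.0 and 219 FPKM in untreated GFP+ cells, and at 112 and 154 FPKM in untreated RFP+ cells. Both CTX-treated samples exceeded both RFP+ samples, by 0.47 (SE 0.41, adjusted p = 0.465), and lay inside the range of untreated GFP+ cells (0.40, adjusted p = 0.562). Jun, the main partner of Fos in AP-1, was at 65.3 and 63.2 FPKM in CTX-treated GFP+ cells, at 33.0 and 121 FPKM in untreated GFP+ cells, and at 46.7 and 77.4 FPKM in untreated RFP+ cells. The groups overlapped, and the differences of 0.02 from untreated GFP+ cells (-0.33 after scaling) and 0.09 from RFP+ cells (SE 0.56) did not pass (adjusted p = 0.987 and 0.926).

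Jund, a JUN protein that is expressed without stimulation and often restrains growth, was lower in GFP+ than in RFP+ samples. It was at 35.0 and 30.5 FPKM in CTX-treated GFP+ cells, at 30.4 and 33.0 FPKM in untreated GFP+ cells, and at 66.1 and 57.4 FPKM in untreated RFP+ cells. All 4 GFP+ samples were below both RFP+ samples. Jund fell by 0.90 in CTX-treated GFP+ against RFP+ cells (SE 0.17, limma adjusted p = 0.0175). In untreated GFP+ against RFP+ cells the difference was -0.94 (SE 0.17, adjusted p = 0.0533), just outside the threshold, and between the GFP+ groups it was 0.04 (adjusted p = 0.892), which became -0.30 after scaling. The call against RFP+ cells was made in 13 of 18 alternatives. It was lost without RFP+ replicate 1 (-0.80, adjusted p = 0.0985) or 2 (0.0545), without CTX-treated replicate 1 (-0.99, 0.131) or 2 (-0.80, 0.226), and with the CTX-treated pair averaged (-0.89, 0.177). Scaled levels of Jund were 31.5 and 27.4 FPKM in CTX-treated GFP+, 41.0 and 32.4 FPKM in untreated GFP+ and 63.0 and 55.1 FPKM in untreated RFP+ cells. Both GFP+ groups thus stayed below RFP+ cells, with a smaller gap between the untreated colours (-0.68, adjusted p = 0.121). The 2 GFP+ groups overlapped as deposited, whereas after scaling the CTX-treated pair lay below untreated GFP+ cells. Within the JUN family, Jund held 12% and 11.5% in CTX-treated GFP+ cells, 20.2% and 8.86% in untreated GFP+ cells and 29.5% and 19.9% in untreated RFP+ cells.

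Ier3, an early response gene that modulates apoptosis, was the most abundant member in CTX-treated GFP+ cells. It was at 301 and 287 FPKM there, at 82.0 and 180 FPKM in untreated GFP+ cells, and at 81.3 and 137 FPKM in untreated RFP+ cells. The CTX-treated pair lay above all 4 untreated samples. Ier3 rose by 1.47 against RFP+ cells (SE 0.40, limma adjusted p = 0.04996), barely inside the threshold, and that call was made in only 7 of 18 alternatives, with an adjusted p of up to 0.28. With all 6 samples kept, it was lost at pseudocounts of 0.1 (limma adjusted p = 0.06) and 0.5 (0.0535). It was also lost with no filter (0.105), a filter of at least 5 FPKM (0.059), no intensity trend (0.0509) and robust moderation (0.0629). The same held without RFP+ replicate 1 (1.10) or 2 (1.84), without CTX-treated replicate 1 (1.44) or 2 (1.51), and with the CTX-treated pair averaged (1.47). Against untreated GFP+ cells the difference was 1.27 (SE 0.40, adjusted p = 0.0889; 0.91 and 0.119 after scaling).

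Egr1, a zinc-finger factor that serum and MAP kinase signals induce within minutes, did not separate the groups. It was at 39.4 and 39.0 FPKM in CTX-treated GFP+ cells, at 25.2 and 195 FPKM in untreated GFP+ cells, and at 29.3 and 148 FPKM in untreated RFP+ cells. The CTX-treated pair lay between the low and the high replicate of both colours, with differences of -0.84 (SE 1.02, adjusted p = 0.622) from untreated GFP+ and -0.74 (SE 1.02, adjusted p = 0.651) from RFP+ cells. Dusp1 was arranged likewise, at 50.3 and 50.5 FPKM in CTX-treated GFP+ cells, at 23.8 and 141 FPKM in untreated GFP+ cells, and at 34.3 and 112 FPKM in untreated RFP+ cells. Its differences were -0.20 from untreated GFP+ cells and -0.30 from RFP+ cells (SE 0.84, adjusted p = 0.895 and 0.835). With standard errors of this size, changes of about 1 log2 unit in these 2 genes were not detectable here.

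In CTX-treated minus untreated GFP+ cells, 1 of the 10 members was called (Fosl1, higher), against 12.8% of all genes tested, 12.3% in the same direction. Their groups did not overlap for 2 members that were higher (Fosl1 and Ier3) and 2 that were lower (Fos and Fosb), against 51.9% and 12.4% of all genes. After scaling, 2 were higher (31.0% of all genes) and 4 lower (38.2%), with Fosl2 and Jund added. The median difference of the members was 0.03 and that of all genes 0.25 (-0.32 and -0.06 after scaling).

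In CTX-treated GFP+ minus RFP+ cells, 3 members were called, 2 higher (Fosl1 and Ier3) and 1 lower (Jund), against 17.0% of all genes, 11.0% higher and 5.99% lower. Groups did not overlap for 4 higher members (Fosl1, Ier3, Junb and Fosl2; 39.5% of all genes) and 3 lower ones (Fos, Fosb and Jund; 37.7%), and after scaling again for 4 higher (34.4%) and 3 lower (43.4%). The median was -0.10 for the members and 0.01 for all genes. The 2 comparisons share the CTX-treated samples. In untreated GFP+ minus RFP+ cells, 0 of 10 were called by limma, and 1 (Jund) had an unadjusted p under 0.05, against 1.90% of all genes called (0.115% higher and 1.78% lower). Groups did not overlap for 0 higher members (4.95% of all genes) and 1 lower member (Jund; 41.5%), and after scaling for 1 higher (Fosl2; 16.3%) and 1 lower (Jund; 20.2%). As deposited, the other 9 members differed by between -0.09 (Dusp1, SE 0.84) and 0.31 (Fosl1, SE 0.35), each less than its standard error. After scaling, Fosl1 (0.54, SE 0.30), Ier3 (0.47, SE 0.33), Junb (0.34, SE 0.33) and Fosl2 (0.20, SE 0.09) exceeded theirs, and none passed. The median of the members was 0.08 against -0.24 for all genes (0.35 and -0.01 after scaling).

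**Figure D3:**
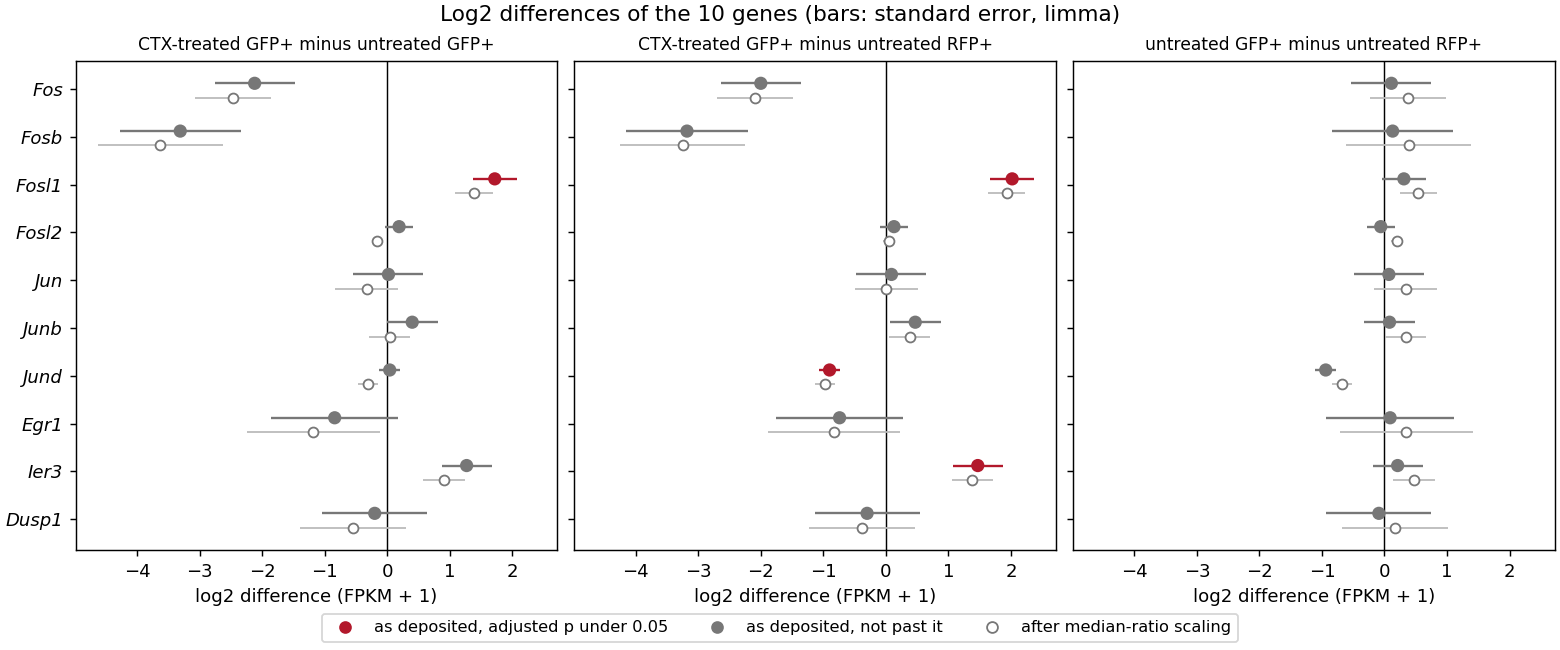
Log2 difference of each member with its standard error, in panels for CTX-treated minus untreated GFP+, CTX-treated GFP+ minus untreated RFP+, and untreated GFP+ minus untreated RFP+ cells; red marks an adjusted p under 0.05 as deposited and open symbols are median-ratio scaled values. Fosl1 passes in both panels with CTX-treated cells, Ier3 and Jund in the panel against RFP+ cells, and no member passes between the untreated colours.

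The order of the members by mean level also differed. In CTX-treated GFP+ cells it ran from Ier3 (294 ± 9.75 FPKM; SD, n = 2 here and below) through Junb (182 ± 14.2), Jun (64.2 ± 1.44), Dusp1 (50.4 ± 0.15), Fos (44.3 ± 1.13), Fosl2 (42.6 ± 0.874), Egr1 (39.2 ± 0.26), Jund (32.7 ± 3.16) and Fosl1 (28.9 ± 0.248) to Fosb (6.0 ± 0.185). The ranges of neighbours in that order did not overlap. In untreated GFP+ cells Fos came first (242 ± 203), before Junb (153 ± 93.2), Ier3 (131 ± 69.6), Egr1 (110 ± 120), Fosb (103 ± 111), Dusp1 (82.3 ± 82.7), Jun (76.9 ± 62.1), Fosl2 (37.9 ± 10.7), Jund (31.7 ± 1.88) and Fosl1 (8.38 ± 3.26). There, only Jund and Fosl1 were neighbours with separate ranges. In untreated RFP+ cells the first 7 places were the same, with Fos at 196 ± 109 FPKM, Junb at 133 ± 29.9, Ier3 at 109 ± 39.2, Egr1 at 88.7 ± 84.1, Fosb at 79.8 ± 71.0, Dusp1 at 73.2 ± 55.0 and Jun at 62.1 ± 21.7. Jund (61.8 ± 6.16), Fosl2 (38.7 ± 0.365) and Fosl1 (6.68 ± 3.17) followed, and only these last 3 had ranges apart from each other.

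For most members the untreated samples differed more between replicates than between colours. Egr1 was 7.73 times as high in replicate 2 as in replicate 1 of untreated GFP+ cells and 5.06 times in untreated RFP+ cells. The ratios were 7.21 and 4.39 for Fosb, 5.92 and 3.27 for Dusp1 and 3.91 and 2.29 for Fos. In both colours it was the sample numbered 2 that was high. The other members showed it less, with 3.66 and 1.66 for Jun, 2.51 and 1.38 for Junb, 2.20 and 1.68 for Ier3 and 1.76 and 2.01 for Fosl1. Fosl2 (1.5 and 0.987) and Jund (1.09 and 0.868) differed least. In the CTX-treated pair the ratios of all 10 lay between 0.872 and 1.

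Replicate 2 exceeded replicate 1 by at least 1 log2 unit in both untreated groups for 4 of the 10 members (Fos, Fosb, Egr1 and Dusp1), against 1.35% of all genes tested, and 0.275% of genes differed as far the other way. After scaling it was the same 4 members and 1.18% of all genes. With scaling, the ratios in untreated GFP+ cells were 5.62 for Egr1, 5.24 for Fosb, 4.30 for Dusp1 and 2.84 for Fos. The median gap of the 10 members was 1.58 in untreated GFP+ and 0.81 in untreated RFP+ cells, while that of all genes was 0.34 and -0.05. The labels do not say whether same-numbered samples of the 2 colours were handled together. Heat shock genes, which respond to warming and handling of cells, had median gaps of 0.49 in untreated GFP+ and -0.06 in RFP+ cells, with 0 of 14 past 1 log2 unit in both. The part of handling in the members' gap was not tested.

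**Figure D4:**
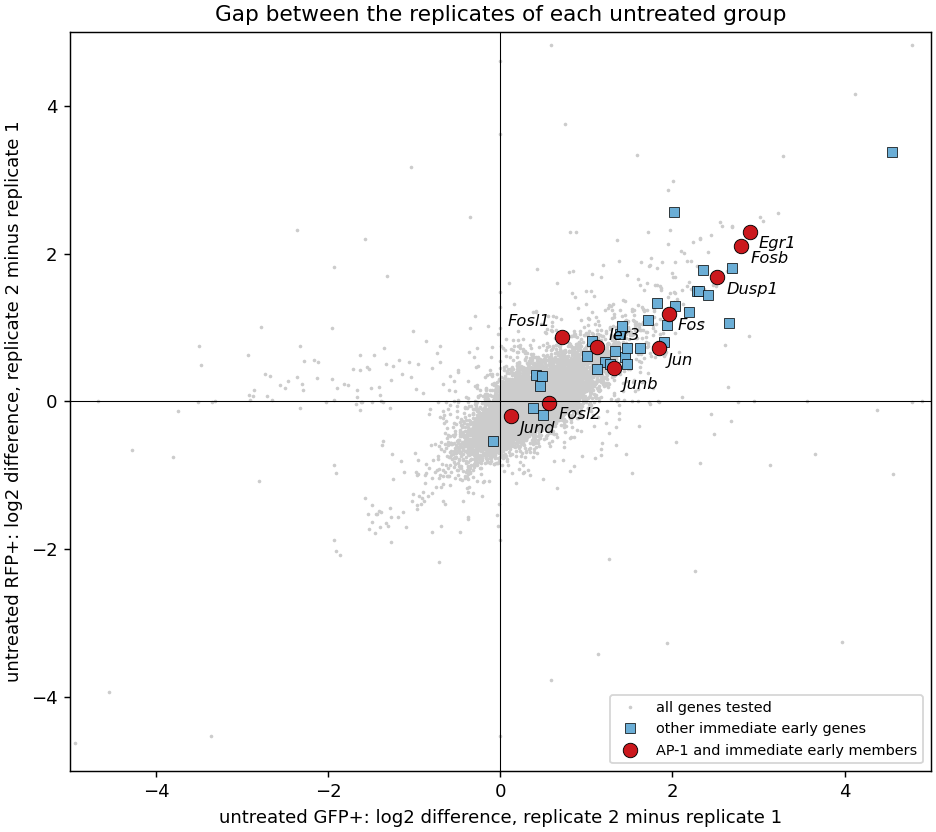
Log2 gap of replicate 2 minus replicate 1 in untreated GFP+ cells (horizontal) and untreated RFP+ cells (vertical) for the 10 members, other immediate early genes and all genes tested. Egr1 (2.90 and 2.30), Fosb (2.80 and 2.10), Dusp1 (2.52 and 1.68) and Fos (1.96 and 1.19) lie past 1 on both axes, and Jund (0.12 and -0.20) and Fosl2 (0.57 and -0.02) lie near the bulk of genes.

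Other immediate early genes showed the same split of the untreated samples. Of the 32 tested, 14 exceeded 1 log2 unit in both colours, and the median gaps were 1.47 in untreated GFP+ and 0.81 in RFP+ cells. The nuclear receptor Nr4a1 was at 21.7 and 21.6 FPKM in CTX-treated GFP+ cells, at 5.77 and 158 FPKM in untreated GFP+ cells, and at 7.32 and 85.4 FPKM in untreated RFP+ cells. Cyr61, a secreted matrix protein induced by serum, was at 122 and 119 FPKM in CTX-treated GFP+ cells, at 90.8 and 454 FPKM in untreated GFP+ cells, and at 109 and 307 FPKM in untreated RFP+ cells. As with Egr1, the CTX-treated pair lay between the low and the high untreated replicates of both genes.

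In CTX-treated minus untreated GFP+ cells, 4 of these 32 genes rose and 0 fell by limma (3 rose and 2 fell after scaling), with a median of 0.26 (-0.08 after scaling). In CTX-treated GFP+ minus RFP+ cells, 3 rose and 0 fell (4 and 1 after scaling), with a median of 0.30, and between the untreated colours 0 passed (median -0.04, and 0.19 after scaling). Of all genes tested, 12.3% rose and 0.474% fell against untreated GFP+ cells, and 11.0% rose and 5.99% fell against RFP+ cells. No response of these genes as a set is therefore read from the counts. Gadd45b, a stress sensor of growth arrest, rose by 1.54 (SE 0.21, adjusted p = 0.00626) and 1.25 (adjusted p = 0.0109) against untreated GFP+ and RFP+ cells. Arc, a neuronal early gene, rose by 1.85 (SE 0.36, adjusted p = 0.0226) and 1.99 (adjusted p = 0.0145). Rhob, a small GTPase induced by DNA damage, rose by 1.02 against untreated GFP+ cells (adjusted p = 0.0333), and the nuclear receptor Nr4a3 rose by 0.93 against RFP+ cells (adjusted p = 0.0256). Nr4a3 was at 1.17 and 1.42 FPKM in CTX-treated GFP+ cells and at most 0.475 FPKM in untreated samples. Arc was at 5.01 and 5.48 FPKM, and only untreated GFP+ replicate 2 (1.56 FPKM) also reached 1 FPKM. Both genes met the filter only through the CTX-treated pair, so they could only be called higher there.

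**Figure D5:**
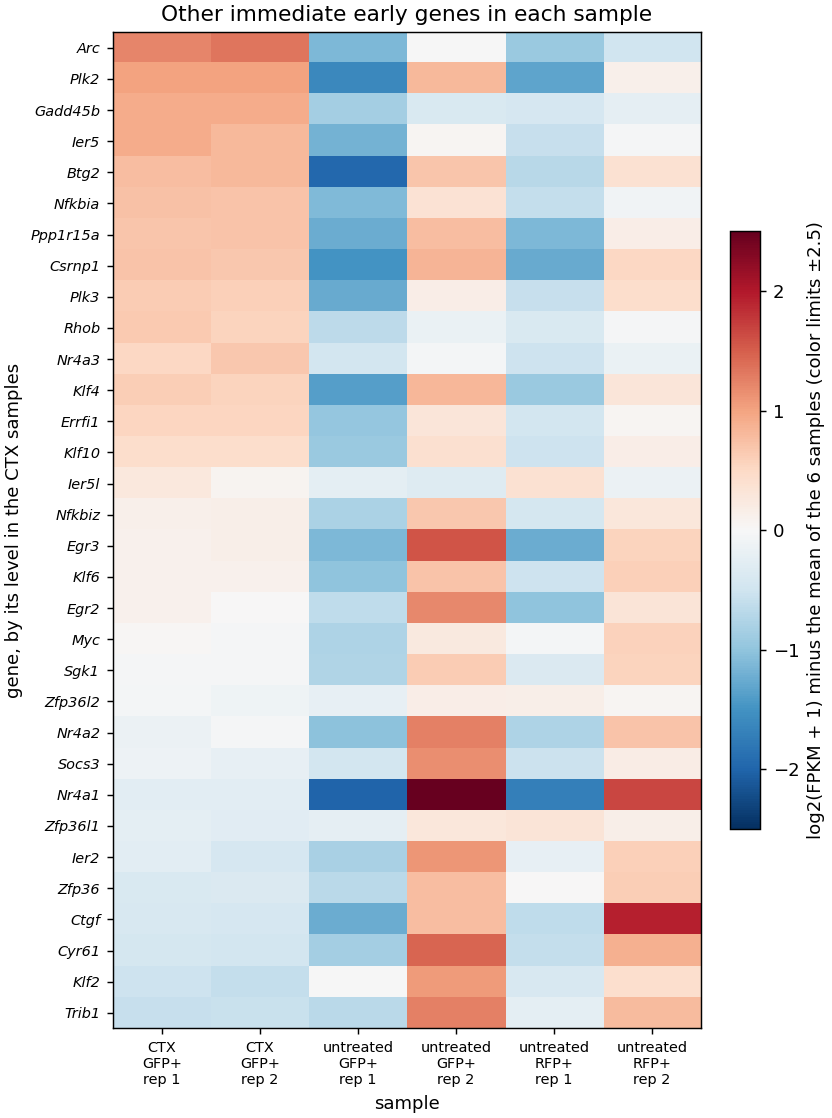
Log2(FPKM + 1) of the 32 other immediate early genes tested, each centred on its mean over the 6 samples, with CTX-treated GFP+, untreated GFP+ and untreated RFP+ samples from left to right. The replicate 2 columns of both untreated groups are high for many of the genes, 14 of which differ from replicate 1 by at least 1 log2 unit in both colours.

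Across the 6 samples, and among 143 genes of the lists used here with a mean of at least 5 FPKM, the genes with a pattern most like Fos were Fosb (Pearson r = 0.998 of log2(FPKM + 1)), Trib1 (0.913) and Sphk1 (0.871). Trib1, a pseudokinase, was at 10.2 and 10.4 FPKM in CTX-treated GFP+ cells, at 9.39 and 38.9 FPKM in untreated GFP+ cells, and at 13.1 and 27.8 FPKM in untreated RFP+ cells. Most like Egr1 were Cyr61 (0.994), Nr4a1 (0.974) and Dusp1 (0.974). Most like Fosl1 were Ccl2 (0.991), Dusp10 (0.975) and Ier3 (0.974). The points are 6 libraries that all genes share, so these values describe likeness and no more. The members thus fell into patterns that differ in where the CTX-treated pair stood: below the untreated samples for Fos and Fosb, between their replicates for Egr1 and Dusp1, and above them for Fosl1 and Ier3.

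The calls over all genes are the background for the lists that follow. In CTX-treated minus untreated GFP+ cells 1607 of 13080 genes were higher and 62 lower (1391 and 1042 after scaling), with a median of 0.25 (-0.06 after scaling), so calls in a list were mostly higher as they were over all genes. In CTX-treated GFP+ minus RFP+ cells 1437 were higher and 784 lower (1905 and 2115 after scaling), with a median of 0.01. Between the untreated colours 15 were higher and 233 lower (131 and 255 after scaling), with a median of -0.24. Nothing is read from a list beyond its counts and its median.

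The partners that FOS and JUN proteins can choose beside each other include the ATF, MAF and BATF families. Of 14 such genes tested, 3 rose and 0 fell in CTX-treated minus untreated GFP+ cells (median 0.59), 4 rose and 0 fell against RFP+ cells (median 0.54, and 5 rose after scaling), and 0 passed between the untreated colours (median -0.24). After scaling, the medians were 0.32, 0.46 and 0.00 in the same order. Batf2, an inhibitory partner of JUN proteins, was at 3.72 and 3.65 FPKM in CTX-treated GFP+ cells, at 0.143 and 0.712 FPKM in untreated GFP+ cells, and at 0.227 and 0.426 FPKM in untreated RFP+ cells. It rose by 1.74 (SE 0.22, limma adjusted p = 0.00503) and 1.82 (adjusted p = 0.00345). Batf2 reached 1 FPKM only in the CTX-treated pair. It thus entered the test through that pair alone and could only be called higher there. Crem, a regulator of CRE-driven genes, rose by 1.14 (adjusted p = 0.0087) and 1.15 (0.00695), and Jdp2, a repressor that dimerizes with JUN proteins, rose by 0.96 (0.0179) and 0.73 (0.0341). The MAF family founder Maf rose by 1.08 against RFP+ cells (0.0153). Maf was at 1.96 and 1.97 FPKM in CTX-treated GFP+ cells. Of the untreated samples, only GFP+ replicate 2 (1.47 FPKM) reached 1 FPKM, so Maf too met the filter only through the CTX-treated pair.

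Upstream of AP-1, most of the MAP kinase and serum response factor genes did not pass. Of 27 tested, 3 rose and 0 fell in CTX-treated minus untreated GFP+ cells (3 and 4 after scaling; median 0.08, and -0.25 after scaling), 0 rose and 2 fell against RFP+ cells (2 and 5 after scaling; median -0.07, and -0.15 after scaling), and 0 passed between the untreated colours (1 fell after scaling; median -0.30, and -0.08 after scaling). The p38 kinase gene Mapk13 rose by 1.66 (limma adjusted p = 0.0109), the MEK gene Map2k1 by 0.80 (0.0417) and the JNK gene Mapk9 by 0.80 (0.0431) against untreated GFP+ cells. Mapk12, another p38 kinase, fell by 1.05 (0.0261) and Nras, which acts upstream of MAP kinases, fell by 0.69 (0.0448) against RFP+ cells.

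Among the MAP kinase phosphatases and feedback genes other than Dusp1, 2 of 13 rose and 0 fell in CTX-treated minus untreated GFP+ cells (median 0.52), 1 rose and 1 fell against RFP+ cells (median 0.08), and 0 passed between the untreated colours (median -0.48). After scaling, the medians were 0.23, -0.00 and -0.25 in the same order. Dusp10, a phosphatase of p38 and JNK, was at 10.5 and 10.3 FPKM in CTX-treated GFP+ cells, at 3.34 and 5.31 FPKM in untreated GFP+ cells, and at 3.68 and 4.07 FPKM in untreated RFP+ cells. It rose by 1.12 (limma adjusted p = 0.0241) and 1.22 (0.0148). Dusp4, a nuclear phosphatase of ERK, rose by 1.52 against untreated GFP+ cells (0.0373), and Dusp9 fell by 0.58 against RFP+ cells (0.0400).

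Genes known to be under AP-1 control included cytokines, cell cycle genes and proteases. Of 24 tested, 6 rose and 0 fell in CTX-treated minus untreated GFP+ cells (4 and 1 after scaling; median 1.18), 6 rose and 0 fell against RFP+ cells (9 and 1 after scaling; median 1.19), and 0 passed between the untreated colours (1 rose after scaling; median 0.01). After scaling, the medians were 0.84, 1.10 and 0.28 in the same order. The quinone reductase Nqo1, which other stress factors also control, rose by 2.07 (limma adjusted p = 0.00345) and 2.25 (0.0023), and the cell cycle regulator Ccnd1 rose by 1.55 against untreated GFP+ cells (0.0238). The chromatin protein Hmga1 rose by 1.57 against untreated GFP+ cells (0.0323), and the cytokine Il6 rose by 2.01 against RFP+ cells (0.0201). Ccl2, a monocyte chemokine, was at 139 and 143 FPKM in CTX-treated GFP+ cells, at 8.16 and 36.2 FPKM in untreated GFP+ cells, and at 7.14 and 21.8 FPKM in untreated RFP+ cells. It rose by 2.94 (0.0407) and 3.38 (0.022), and its untreated samples stood in the same order as those of Fosl1.

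Of the 14 heat shock genes, 4 rose and 0 fell in CTX-treated minus untreated GFP+ cells (4 and 2 after scaling; median 0.63), 1 rose and 2 fell against RFP+ cells (1 and 3 after scaling; median 0.19), and 0 passed between the untreated colours (median -0.45). After scaling, the medians were 0.28, 0.11 and -0.19 in the same order. The small chaperone Hspb1 rose by 1.70 (limma adjusted p = 0.00402), Dnajb4 by 1.31 (0.0119) and the inducible HSP70 gene Hspa1a by 1.45 (0.0357) against untreated GFP+ cells. The mitochondrial chaperone genes Hspd1 (fell by 1.03, 0.0327) and Hspe1 (fell by 0.82, 0.0397) were lower in CTX-treated GFP+ than in RFP+ cells. Their part in the results of the members was not tested.

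Markers of the labelled state and of other cells were read beside the members. Summed epithelial markers were 325 to 339 FPKM in CTX-treated GFP+, 167 to 316 in untreated GFP+ and 794 to 1049 in untreated RFP+ cells. Of 10, 7 were called lower in both GFP+ groups against RFP+ cells (9 in CTX-treated cells after scaling). Cldn3, Esrp1 and Lsr differed by -2.21, -2.24 and -2.31 without drug (limma adjusted p = 0.0102 each). In CTX-treated minus untreated GFP+ cells, 2 rose (Cldn4 and Krt19) and 0 fell (1 and 1 after scaling). Cldn4 was at 18.9 and 19.4 FPKM in CTX-treated GFP+, 1.37 and 3.32 in untreated GFP+ and 4.32 and 13.1 in untreated RFP+ cells. Summed mesenchymal markers were 4454 to 4519, 3682 to 4368 and 2215 to 2808 FPKM in the same order, and 5 of 10, among them Zeb1 (1.35), Zeb2 (1.37) and Snai2 (1.08), rose in CTX-treated GFP+ against RFP+ cells, while 0 passed in the other 2 comparisons (2 rose in untreated GFP+ against RFP+ cells after scaling). Of 11 leukocyte markers in the table, Cd3e, Emr1 and Tyrobp were at 0 in every sample and 9 stayed under 1 FPKM throughout. Their summed level was 32.0 to 33.2 FPKM in CTX-treated GFP+ cells, 4.30 to 8.09 in untreated GFP+ cells and 5.18 to 5.26 in untreated RFP+ cells. Nearly all of it was the lysosomal protein Cd68, at 30.9 and 29.8 FPKM in CTX-treated GFP+, 3.0 and 6.30 in untreated GFP+ and 3.74 and 3.94 in untreated RFP+ cells. All 8 endothelial markers were under 1 FPKM in every sample and summed to 1.76 to 1.83 FPKM in CTX-treated GFP+, 0.179 to 0.691 in untreated GFP+ and 0.318 to 0.377 in untreated RFP+ cells. The 10 fibroblast markers summed to 161 to 164 FPKM in CTX-treated GFP+, 230 to 232 in untreated GFP+ and 85.1 to 110 in untreated RFP+ cells. Of 6 tested, 3 fell and 0 rose in CTX-treated minus untreated GFP+ cells. Against RFP+ cells, 1 rose in untreated GFP+ (4 after scaling), 2 rose in CTX-treated GFP+ cells and 0 fell. Dcn, which rose in both, was at 84 and 87.2 FPKM in CTX-treated GFP+, 30.4 and 53.5 in untreated GFP+ and 7.31 and 12.3 in RFP+ cells. These lists moved with the groups, and their part in the results of the members was not tested.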

How the data were processed

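RNA from sorted cells was made into TruSeq libraries, per the labels' protocols. The authors deposited 1 table of FPKM values for all 6 samples. Per the submitters' processing notes, CASAVA 1.8.2, FastQC, TopHat, Cufflinks, HTSeq and the mm9 build were used; their order, settings and strand handling are not given in the sources used here. The labels name a total RNA input, and FPKM moves with transcript length and with very abundant transcripts. The depth behind a value is unknown, as no source used here gives read totals. No count test was made.

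From the deposited FPKM, log2(FPKM + 1) was computed for features with at least 1 FPKM in at least 2 samples and fitted with limma 3.58.1 in R 4.3.3 (moderated variances with an intensity trend, all 6 samples, 3 residual degrees of freedom). Tests were two-sided, adjusted by Benjamini-Hochberg over 13080 features at 0.05. The members and the 11 other lists were chosen with earlier results of these data known, and lists are described by counts and medians. Beside the members, the genes named were up to 3 of each list with the lowest adjusted p in a comparison, or else its most abundant member, and the 3 genes most like Fos, Egr1 and Fosl1; some of those are given by their list's count alone. Alternatives were median-ratio and quantile scaling, pseudocounts of 0.1 and 0.5, other filters, other variance models, fits of 4 samples, a replicate block and leaving out each sample. Averaging the CTX-treated pair and a crossed block were added after the data were seen. Whether that pair is 1 library cannot be tested without counts. The fit was tested on simulated data. Symbols that had become dates (25 of them) are not named. Promoter sequences are from RefSeq (GRCm38.p6), not the mm9 build of the table, and were matched by symbol. Python 3.11.15, pandas 2.3.3 and matplotlib 3.10.9 were used.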

Additional observations from a re-analysis of the deposited data

How the results depend on the processing

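In CTX-treated GFP+ minus RFP+ cells, Ier3 lost its call with pseudocounts of 0.1 and 0.5, both other filters, no intensity trend and robust moderation. Fosl1 and Jund kept theirs in all of these. The count of members called thus moved with the fit, and the counts given next for that comparison leave out these fits. In untreated GFP+ minus RFP+ cells it was 0, and 1 (Jund) with robust moderation and with the replicate block, alone or with scaling; leaving out 1 sample gave 0 to 1. In CTX-treated minus untreated GFP+ cells it was 1, and 0 with no filter, with the 4 samples compared only or with the CTX-treated pair averaged; leaving out 1 sample gave 0 to 4. In CTX-treated GFP+ minus RFP+ cells it was 3, and 5 with the 4 samples compared, 1 with the pair averaged, and 0 to 5 with 1 sample left out, 0 without RFP+ replicate 1.

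Same-numbered samples deviated together between untreated GFP+ and RFP+ cells (r = 0.298 of deviations from group means over 13080 genes), but not between CTX-treated GFP+ and RFP+ cells (-0.0364) or the GFP+ groups (-0.107), so the numbers were not taken as pairs over the 3 groups. The replicate block gave 5 calls in CTX-treated minus untreated GFP+ and 6 in CTX-treated GFP+ minus RFP+ cells (3 and 5 with scaling), with Fos and Fosb called in all 4 of these fits although neither passed in these 2 comparisons as reported. Crossing the numbers of the GFP+ groups also gave 5.

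Some differences changed sign. With scaling these were differences near 0, but when 1 sample was left out they included larger ones, such as Egr1 in CTX-treated GFP+ against untreated GFP+ (-0.84) and RFP+ (-0.74) cells. With median-ratio scaling, alone or with the replicate block, and with quantile normalization, Dusp1 (0.17, 0.17 and 0.23) and Fosl2 (0.20, 0.20 and 0.24) turned positive in untreated GFP+ minus RFP+ cells. In CTX-treated minus untreated GFP+ cells, Fosl2 (-0.16, -0.16 and -0.07), Jun (-0.33, -0.33 and -0.23) and Jund (-0.30, -0.30 and -0.22) turned negative. Leaving out 1 sample spanned 0 for every member but Jund in untreated GFP+ minus RFP+ cells: Fos -0.86 to 1.09, Fosb -1.27 to 1.53, Fosl1 -0.13 to 0.74, Fosl2 -0.34 to 0.23, Jun -0.85 to 0.99, Junb -0.58 to 0.74, Egr1 -1.36 to 1.54, Ier3 -0.36 to 0.77 and Dusp1 -1.35 to 1.17. It did so in CTX-treated minus untreated GFP+ cells for Fosl2 (-0.09 to 0.47), Jun (-0.90 to 0.94), Junb (-0.26 to 1.06), Jund (-0.05 to 0.14), Egr1 (-2.29 to 0.61) and Dusp1 (-1.46 to 1.05), and in CTX-treated GFP+ minus RFP+ cells for Jun (-0.27 to 0.45), Egr1 (-1.89 to 0.41) and Dusp1 (-1.14 to 0.54). The cause was not tested. Of 180, 190 and 180 values in these 3 comparisons, 153, 151 and 149 kept direction and call. Read depth is unknown, so what it limits cannot be given.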

Other observations

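Genes outside the lists, such as Hes1 and the interferon-induced genes below, also stood apart between the untreated replicates. Nr4a1, Egr2 and Egr3, also given below, belong to the other immediate early genes already counted, and Egr1 is a member. The genes named here were picked with their values known. The Notch target Hes1 was at 25.3 and 24.7 FPKM in CTX-treated GFP+ cells, at 9.51 and 97.5 FPKM in untreated GFP+ cells, and at 11 and 69.7 FPKM in untreated RFP+ cells. As for Egr1, the CTX-treated pair lay between the low and the high untreated samples. Of 116 protein-coding genes (matched to RefSeq by symbol or older symbol) with a mean of at least 5 FPKM whose replicate 2 exceeded replicate 1 by at least 1 log2 unit in both untreated groups, 4 were members and 12 other immediate early genes. The 12 widest gaps included Nr4a1, Hes1 and Egr1 as well as the interferon-induced genes Ifit3, Oas2, Usp18, Ifi44, Oasl2 and Ifit1. Egr2 was at 3.23 and 2.93 FPKM in CTX-treated GFP+ cells, at 1.54 and 7.98 FPKM in untreated GFP+ cells, and at 0.958 and 3.91 FPKM in untreated RFP+ cells. Egr3 was at 2.09 and 2.15 FPKM in CTX-treated GFP+ cells, at 0.309 and 7.47 FPKM in untreated GFP+ cells, and at 0.203 and 3.22 FPKM in untreated RFP+ cells, so these relatives of Egr1 were arranged as Egr1 was.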
